A study of Mus musculus with 237 samples.

Results

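The cells described here are 71 single interstitium cells of wild-type mouse kidneys at E18.5, late in gestation, split by their own Foxd1 level. Cells with Foxd1 at 1 RPKM or more were called Foxd1-positive and cells under 1 RPKM Foxd1-negative, where RPKM is reads scaled to gene length and to the mapped reads of the cell. The sides were thus chosen by Foxd1 RPKM alone. The rule gave 41 Foxd1-positive cells (57.7%, exact 95% interval 45.4 to 69.4) and 30 Foxd1-negative cells, out of 237 cells profiled in all. The comparison was repeated without the 17 cells that had Pax2 and Six2, genes of nephron progenitors, both at 1 RPKM or more, which left 35 Foxd1-positive and 19 Foxd1-negative cells.

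In the developing kidney, stromal progenitors that express Foxd1, a forkhead transcription factor, surround the cap mesenchyme that makes nephrons. Their descendants are known to include cortical and medullary interstitial fibroblasts, pericytes, vascular smooth muscle and mesangial cells. Foxd1 is highest in the cortical progenitors and declines as these cells move inward and differentiate, while medullary stroma, mural cells and cap mesenchyme are each known by other genes.

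Kidneys of mixed strain were digested to single cells, enriched by flow sorting and captured in a Fluidigm C1 device, so that each sample is 1 cell. The table also holds Pax2 mutant cap mesenchyme cells at E18.5 (44 cells) and E13.5 (29), and wild-type cap mesenchyme with its derivatives at E18.5 (74) and E13.5 (18). The wild-type interstitium titles carry the tag FoxD1_GCE, which the labels do not explain. The sorting gate, the nature of the Pax2 mutation and the number of embryos are not given in the sources used here. Because no label ties a cell to an embryo, each group counts as 1 sample, so all differences below are descriptions with the spread between cells, without tests or p-values. The cells of a side are not replicates.

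Foxd1 itself (mm10 chromosome 13, 98354245 to 98356705) was used to make the sides, and its values are given only as a description. In Foxd1-positive cells it had a lowest value of 1.04, a median of 14.6 and a highest value of 122 RPKM. Of these cells, 12 were under 5 RPKM. Of the Foxd1-negative cells, 20 were listed at 0 and 10 lay between 0 and 1 RPKM. The 4 cells just above the threshold had 1.04, 1.07, 1.07 and 1.09 RPKM, and the 4 just under it had 0.565, 0.609, 0.828 and 0.839 RPKM, so the threshold does not fall in a gap.

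Cells of the 2 pools named in the titles were spread unevenly over the sides. Pool 2 gave 16 Foxd1-positive and 6 Foxd1-negative cells, and pool 3 gave 25 and 24. Genes detected per cell, counted at 1 RPKM, stand in for a read depth that an RPKM table does not show. They had a median of 5264 (range 3085 to 6971) in Foxd1-positive cells and 5007.5 (3390 to 7196) in Foxd1-negative cells. The medians were 4769 and 4426 without the Pax2 and Six2 cells. Within pool 2 the medians were 5817.5 in Foxd1-positive and 4231.5 in Foxd1-negative cells, and within pool 3 they were 4803 and 5258, so the sides stood in opposite order in the pools. The part of gene number and of pool in the differences was not tested.

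**Figure D1:**
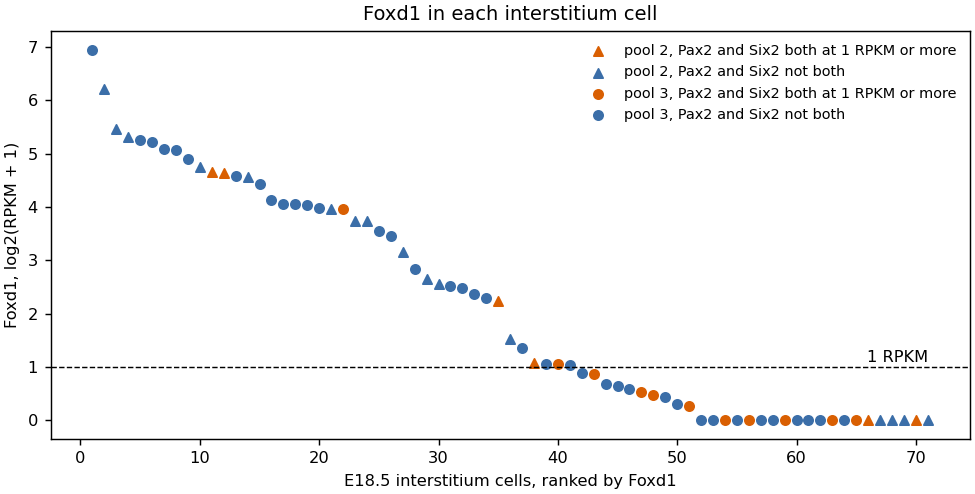
Foxd1 in each of the 71 interstitium cells as log2(RPKM + 1), ranked from high to low; triangles are pool 2 and circles pool 3, orange marks cells with Pax2 and Six2 both at 1 RPKM or more, and the dashed line is 1 RPKM. The 41 cells above the line run from 1.04 to 122 RPKM, and 20 of the 30 cells below it lie at 0, among them all 6 Foxd1-negative cells of pool 2.

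The interstitium label was checked against marker genes. Meis1, a homeobox factor of renal stroma, was at 1 RPKM or more in 41 of 41 Foxd1-positive and 28 of 30 Foxd1-negative cells. Rgs5, a regulator of G-protein signalling that marks pericytes, was detected in 26 of 41 and 21 of 30 cells, and Col1a1, a fibrillar collagen, in 40 of 41 and 27 of 30. These markers were thus present on both sides of the split. Of the 17 cells with Pax2 and Six2, 6 were Foxd1-positive and 11 Foxd1-negative. Markers of other cell types were also found in some cells. Any of 10 immune markers was at 1 RPKM or more in 2 Foxd1-positive and 4 Foxd1-negative cells, any of 4 erythroid markers in 5 and 2, any of 10 endothelial markers in 14 and 6, any of 10 tubule markers in 14 and 9, any of 8 ureteric markers in 12 and 9, and any of 7 neural and glial markers in 20 and 7. Any of 8 podocyte markers was at 1 RPKM or more in 30 Foxd1-positive and 24 Foxd1-negative cells, with a median summed level of 1.61 and 1.70 RPKM. The highest summed podocyte level was 5.68 RPKM in Foxd1-positive and 324 RPKM in Foxd1-negative cells. Any of 10 genes of the committing nephron was at 1 RPKM or more in 41 and 30 cells, with a median summed level of 33.6 and 38.8 RPKM. Only 4 of these 10 reached 1 RPKM in 10% of the cells of a side. The list shares Wnt4 with the medullary stroma list used below, so detection of any member does not mark a committing nephron cell. In these 8 lists no tested gene differed by 1 log2 unit.

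Across all genes except Foxd1, 11367 reached 1 RPKM in 10% of the cells of either side. The difference used throughout is the mean log2(RPKM + 1) of Foxd1-positive cells minus that of Foxd1-negative cells, which understates the change of low genes. By this measure 386 genes (3.4%) lay at least 1 log2 unit higher in Foxd1-positive cells and 283 (2.49%) lower, around a median of 0.00. Without the Pax2 and Six2 cells 803 of 11202 genes (7.17%) were higher and 294 (2.62%) lower, around a median of 0.10.

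Penk (chromosome 4, 4133536 to 4138815), which encodes the precursor of the enkephalin peptides, had the largest difference among the genes that the naming rule allowed in all 71 cells. Its lowest, median and highest values were 1.62, 370 and 2756 RPKM in Foxd1-positive cells, against 0, 89 and 1310 RPKM in Foxd1-negative cells. The ranges overlapped, and Penk was at 1 RPKM or more in 41 of 41 Foxd1-positive cells (exact 95% interval 91.4 to 100%) and in 20 of 30 Foxd1-negative cells (66.7%, 47.2 to 82.7%). On the log2 scale Penk averaged 8.20 ± 1.87 in Foxd1-positive and 5.22 ± 3.90 in Foxd1-negative cells (SD between cells, n = 41 and 30), a difference of 2.99. The difference was 5.65 in pool 2 and 2.29 in pool 3, and 2.79 without the Pax2 and Six2 cells.

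Other secreted or matrix proteins stood near it. Serping1, the inhibitor of the complement C1 protease, had medians of 79.9 RPKM in Foxd1-positive and 9.84 RPKM in Foxd1-negative cells, with ranges of 0 to 1174 and 0 to 540, and was detected in 39 of 41 and 16 of 30 cells. Its mean log2 values were 6.17 ± 2.31 and 3.23 ± 3.29, a difference of 2.94, and 3.08 without the Pax2 and Six2 cells, where it ranked highest. Ogn (osteoglycin, a small leucine-rich proteoglycan) had medians of 132 RPKM in Foxd1-positive and 5.20 RPKM in Foxd1-negative cells and was higher by 2.89. Cells without either transcript occurred on both sides, but were more frequent among Foxd1-negative cells. Sfrp1, a secreted antagonist of Wnt ligands, was at 1 RPKM or more in 41 of 41 Foxd1-positive cells and 24 of 30 Foxd1-negative cells, with medians of 122 and 9.50 RPKM and a difference of 2.58, or 1.83 without the Pax2 and Six2 cells. Mfap4, a microfibril-associated glycoprotein, was higher by 2.21 and C1qtnf2, a secreted protein of the C1q and TNF-related family, by 2.32.

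The other leading genes were of mixed kind. The tight junction gene Cldn1 had medians of 71 RPKM in Foxd1-positive and 0.598 RPKM in Foxd1-negative cells, was detected in 35 of 41 and 12 of 30, and was higher by 2.89. Plagl1, an imprinted zinc finger transcription factor, was detected in 41 of 41 and 26 of 30 cells with medians of 185 and 29.7 RPKM and was higher by 2.48. Its SD was 1.78 log2 units in Foxd1-positive cells and 2.81 in Foxd1-negative cells. The transcriptional coregulator Mn1 was higher by 2.32, Sertad4, a SERTA domain gene, by 2.24, Myl9, a regulatory light chain of myosin, by 2.06, and Ackr3, a scavenging receptor for the chemokine Cxcl12, by 2.05. Cxcl12 itself differed by 0.75. For each of the 12 highest genes the ranges of the sides overlapped, and the difference was smaller than the SD between Foxd1-negative cells.

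**Figure D2:**
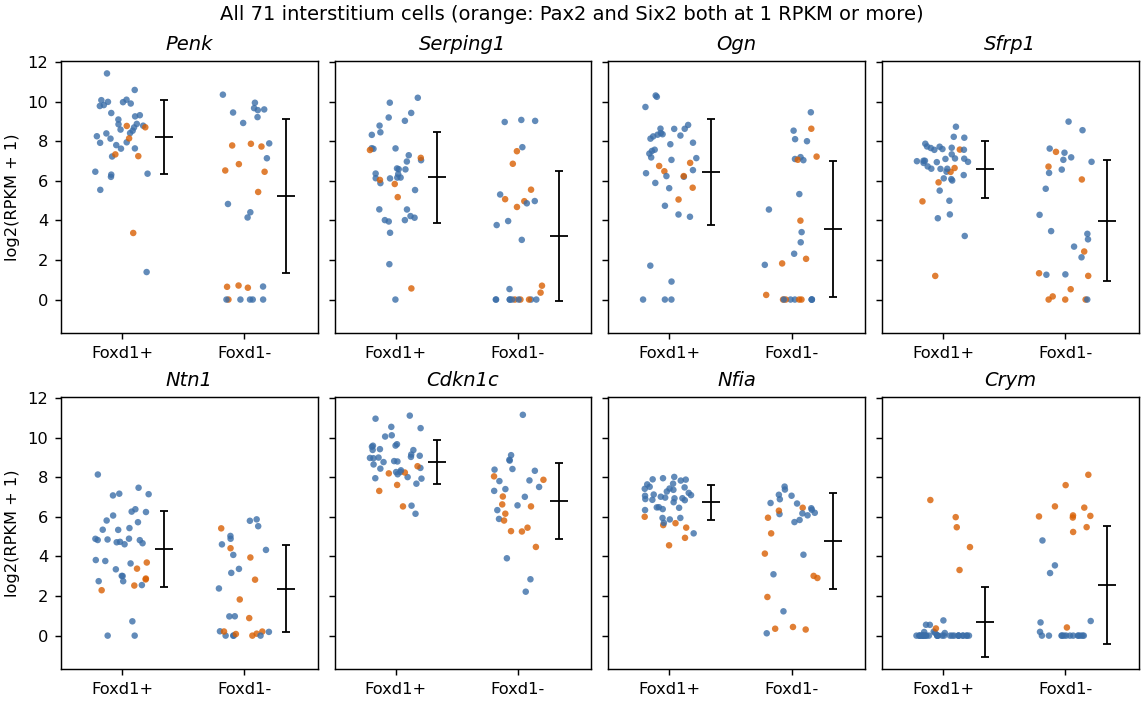
Values of 8 genes as log2(RPKM + 1) in the 41 Foxd1-positive (left) and 30 Foxd1-negative cells (right); each point is a cell, orange points have Pax2 and Six2 both at 1 RPKM or more, and bars are mean and SD between cells. For Penk, Serping1, Ogn and Sfrp1 the Foxd1-negative cells run from 0 up to values among those of the Foxd1-positive cells, while Crym is high mostly in orange cells.

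Among 14 genes of the nephrogenic interstitium, the cortical progenitor stroma, 4 were higher by 1 log2 unit and 1 was lower in all cells, with a member median of 0.70 against 0.00 over all genes. The share of all genes was 3.4% higher and 2.49% lower. The mean over the list was 4.18 ± 0.571 log2 units in Foxd1-positive cells and 3.42 ± 1.02 in Foxd1-negative cells. Ntn1, encoding the guidance cue netrin-1, had medians of 25.3 RPKM in Foxd1-positive and 3.39 RPKM in Foxd1-negative cells, was detected in 38 of 41 and 16 of 30, and was higher by 2.01. Snai2, a zinc finger repressor of epithelial genes, was detected in 27 of 41 and 12 of 30 cells and was higher by 1.81. Meis1 was high on both sides, with medians of 229 RPKM in Foxd1-positive and 171 RPKM in Foxd1-negative cells. Its difference of 1.03 ran from 0.82 to 1.14 as each cell was left out in turn, and it was 0.66 in pool 2 and 1.24 in pool 3.

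Once the Pax2 and Six2 cells were left out, 6 of the 14 genes were higher and 1 was lower, with a median of 0.74 against 0.10 over all genes. There, 7.17% of all genes were higher and 2.62% lower. The additional genes were Rspo3, an agonist of Wnt signalling, and Crabp1, a retinoic acid binding protein. Rspo3 was detected in 18 of 35 Foxd1-positive and 2 of 19 Foxd1-negative cells and was higher by 1.25, with differences of 1.55 in pool 2 and 1.08 in pool 3. Crabp1 was detected in 11 of 35 and 2 of 19 cells and was higher by 1.28. Aldh1a2, which makes retinoic acid and is a cortical stroma gene, had medians of 374 RPKM in Foxd1-positive and 300.4 RPKM in Foxd1-negative cells and a difference of 0.88. Fat4, an atypical cadherin of the stroma, differed by 0.29 and Meis2 by 0.19.

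Tcf21, a basic helix-loop-helix factor of renal stroma, was the member that ran the other way. In the 54 cells without Pax2 and Six2 it had a lowest, median and highest value of 0, 13.1 and 396 RPKM in Foxd1-positive cells, against 0, 108 and 611 RPKM in Foxd1-negative cells. It was lower by 1.80 (3.68 ± 2.89 and 5.48 ± 3.29), by 3.29 in pool 2 and by 1.13 in pool 3, and in all 71 cells it was lower by 1.03. The ranges overlapped fully: 25 of 35 Foxd1-positive cells and 15 of 19 Foxd1-negative cells had Tcf21 at 1 RPKM or more.

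Genes listed for medullary stroma were not the reciprocal of these. Of 8 such genes, 4 were higher and 0 lower by 1 log2 unit in all cells, and of 7 without the Pax2 and Six2 cells, 3 were higher and 0 lower. The shares over all genes were 3.4% higher and 2.49% lower in all cells, and 7.17% and 2.62% in the repeat. The member medians were 0.66 and 0.97, against 0.00 and 0.10 over all genes. Besides Penk, Cdkn1c, an imprinted inhibitor of cyclin-dependent kinases, was detected in every cell of both sides. Its lowest, median and highest values were 70.5, 445 and 2225 RPKM in Foxd1-positive cells, against 3.66, 129 and 2289 RPKM in Foxd1-negative cells. Cdkn1c was higher by 1.96 (8.78 ± 1.11 and 6.82 ± 1.91), with 2.19 in pool 2 and 2.0 in pool 3. Smoc2, a matricellular protein, was detected in 24 of 41 and 7 of 30 cells and was higher by 1.69. Wnt5a, a ligand of non-canonical Wnt signalling, was higher by 1.22 in all cells and by 0.97 without the Pax2 and Six2 cells. Wnt4 differed by -0.39 and Tnc, encoding tenascin C, by -0.09.

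Among 19 stromal transcription factors, 4 were higher and 2 lower in all cells, around a median of 0.13. Of all genes, 3.4% were higher and 2.49% lower, around a median of 0.00. Nfia, a nuclear factor I gene, had a lowest, median and highest value of 22.7, 122 and 259 RPKM in Foxd1-positive cells, against 0.0855, 64 and 184 RPKM in Foxd1-negative cells. It was higher by 1.94, with an SD of 0.880 in Foxd1-positive and 2.42 in Foxd1-negative cells, and by 1.34 without the Pax2 and Six2 cells. Nfib was higher by 1.57 in all cells but differed by only 0.40 in pool 2, and Ebf1 was higher by 1.31. Besides Tcf21, the forkhead gene Foxc2 was lower. Foxc2 was detected in 13 of 35 Foxd1-positive and 13 of 19 Foxd1-negative cells without Pax2 and Six2, with medians of 0 and 4.36 RPKM, and was lower by 1.93, by 3.01 in pool 2 and by 1.61 in pool 3.

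The collagen and fibroblast genes depended on the Pax2 and Six2 cells. With all 71 cells, 8 of the 13 members of the stromal and fibroblast list were higher and 0 lower, with a median of 1.27, while without those cells 3 were higher and 0 lower, with a median of 0.55. Over all genes the shares were 3.4% higher and 2.49% lower in all cells, and 7.17% and 2.62% without those cells. Pdgfra, the receptor that marks interstitial fibroblasts, was detected in 38 of 41 Foxd1-positive cells (92.7%, 80.1 to 98.5%) and 20 of 30 Foxd1-negative cells (66.7%, 47.2 to 82.7%) and was higher by 1.33. Outside the Pax2 and Six2 cells Pdgfra was detected in 32 of 35 and 16 of 19 cells and differed by 0.37. Col1a1 differed by 1.27 in all cells and 0.56 without the Pax2 and Six2 cells, and in all cells it differed by -0.31 in pool 2 and 1.92 in pool 3. Postn, encoding periostin, kept a difference of 1.56 without the Pax2 and Six2 cells, and Ogn one of 2.51. Of 14 further extracellular matrix genes, 3 were higher and 0 lower in all cells. Elastin (Eln) was the highest of them, detected in 31 of 41 and 10 of 30 cells, with a difference of 2.02 and of 1.86 without the Pax2 and Six2 cells. Its highest value was in a Foxd1-negative cell (469 RPKM, against 185 RPKM in Foxd1-positive cells).

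Signalling lists were read in the 54 cells without Pax2 and Six2, where 7.17% of all genes were higher and 2.62% lower. The lists share members, so their counts are not separate results. Ntn1 and Crabp1 are also in the nephrogenic interstitium list, and Pdgfrb is also in the mural list. Of 12 secreted guidance and vascular signals, 3 were higher and 0 lower (median 0.52): Ntn1 by 1.92, and the semaphorins Sema3a and Sema3d by 1.47 and 1.10. Of 10 retinoic acid pathway genes, 3 were higher and 0 lower (median 0.61): the receptor Rarb by 1.42, Crabp1 by 1.28 and the retinaldehyde reductase Dhrs3 by 1.11. The Rarb difference was 4.41 in pool 2 and 0.31 in pool 3. Of 11 Hippo pathway genes and targets, the kinase Lats2 (1.48) and the coactivator Yap1 (1.04) were higher and 0 were lower. Of 8 TGF-beta and PDGF pathway genes, the ligand Tgfb3 was higher by 1.35 and the receptor Pdgfrb lower by 1.30.

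**Figure D3:**
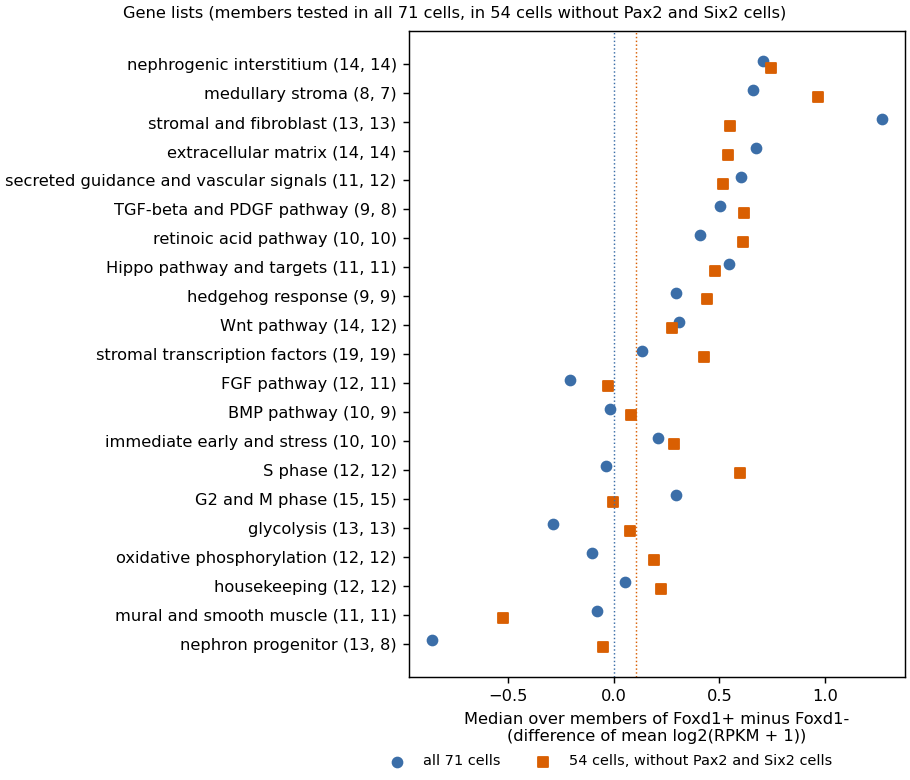
Median over the members of each gene list of the Foxd1-positive minus Foxd1-negative difference of mean log2(RPKM + 1), in all 71 cells (blue circles) and in the 54 cells without Pax2 and Six2 cells (orange squares), with the medians over all genes as dotted lines at 0.00 and 0.10. The nephron progenitor list moves from -0.86 to -0.05 when the Pax2 and Six2 cells are left out, and the mural list from -0.08 to -0.52.

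Mural genes mostly stood lower in Foxd1-positive cells once the Pax2 and Six2 cells were left out. In the 54 cells without Pax2 and Six2, 0 of 11 mural and smooth muscle genes were higher and 3 were lower by 1 log2 unit, with a member median of -0.52 against 0.10 over all genes. Of all genes, 7.17% were higher and 2.62% lower. The summed level of the 16 listed genes ran from 2.38 to 1198 RPKM (median 186) in Foxd1-positive cells and from 54.1 to 1993 RPKM (median 376) in Foxd1-negative cells, with Cnn1, Higd1b and Actg2 at 0 in every cell. Kcnj8, encoding a potassium channel subunit of pericytes, was detected in 8 of 35 Foxd1-positive and 9 of 19 Foxd1-negative cells, with highest values of 197 and 385 RPKM and a median of 0 RPKM on both sides. It was lower by 1.95, by 0.77 in pool 2 and by 2.27 in pool 3. Pdgfrb, the PDGF receptor of pericytes, was detected in 18 of 35 and 14 of 19 cells and was lower by 1.30. Mcam, an adhesion molecule of pericytes and endothelium, was lower by 1.36, but this rested on 2 Foxd1-negative cells with 909 and 888 RPKM, and the difference reached -0.89 when a cell was left out.

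Rgs5 followed this direction without passing 1 log2 unit. It had medians of 98.4 RPKM in the 35 Foxd1-positive and 98.6 RPKM in the 19 Foxd1-negative cells, and differed by -0.85. In all 71 cells it differed by -0.08, although its median was higher in Foxd1-positive cells (74.9 RPKM) than in Foxd1-negative cells (35.6 RPKM). The size of the Rgs5 difference thus changed with the cells that entered, and its medians did not follow the mean difference. Counting cells with Kcnj8 and Rgs5 both at 1 RPKM or more, a combination chosen after the values were seen, gave 6 of 35 Foxd1-positive cells (17.1%, 6.56 to 33.6%) and 8 of 19 Foxd1-negative cells (42.1%, 20.3 to 66.5%). These intervals overlapped and cover counting error only. The contractile gene Acta2 was detected in 7 of 35 and 6 of 19 cells.

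**Figure D4:**
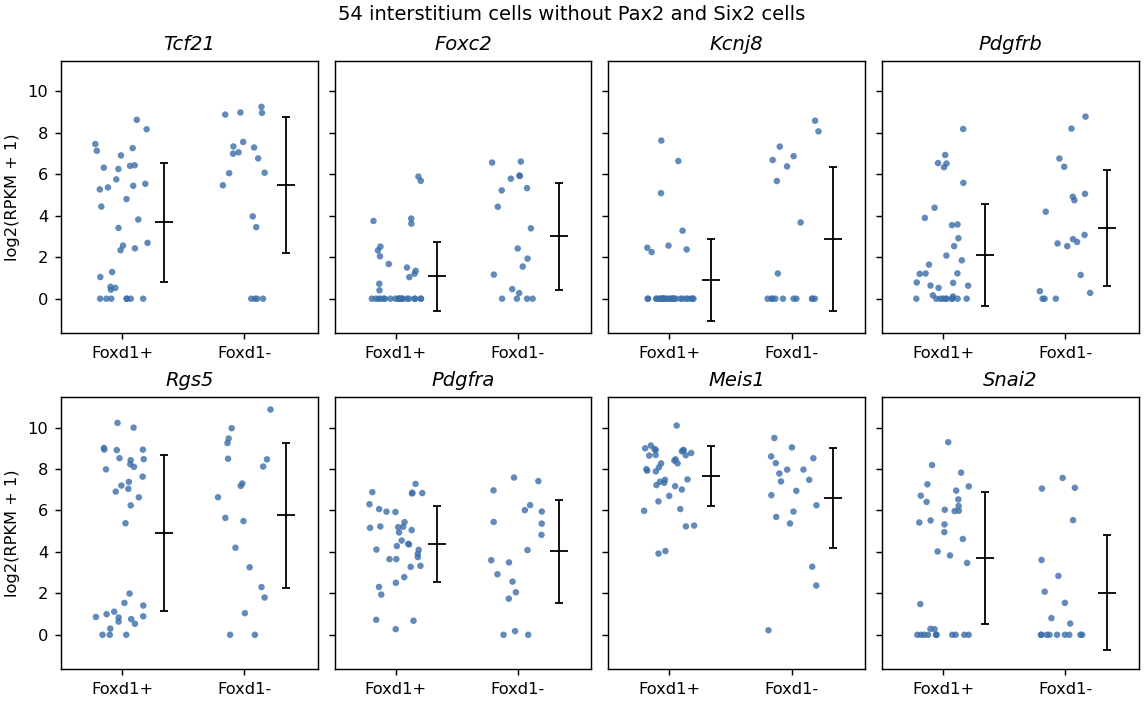
Values of 8 genes as log2(RPKM + 1) in the 35 Foxd1-positive (left) and 19 Foxd1-negative cells (right) without Pax2 and Six2; each point is a cell and bars are mean and SD between cells. Tcf21, Foxc2, Kcnj8, Pdgfrb and Rgs5 reach higher in Foxd1-negative cells, Snai2 in Foxd1-positive cells, and Pdgfra spans a similar range on both sides.

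Nephron progenitor genes were lower in the Foxd1-positive cells when all 71 were used: 0 of 13 were higher and 5 lower, with a median of -0.86. Among all genes 3.4% were higher and 2.49% lower. The summed level of the 14 listed genes ran from 4.99 to 889 RPKM (median 121) in Foxd1-positive cells and from 0.351 to 1417 RPKM (median 142) in Foxd1-negative cells. Crym, encoding mu-crystallin, was detected in 5 of 41 Foxd1-positive and 13 of 30 Foxd1-negative cells and was lower by 1.86. Cited1, a transcriptional cofactor of uncommitted progenitors, was lower by 1.55, and Six2, the factor that maintains them and part of the rule for the repeat, by 1.34. Leaving out the cells with Pax2 and Six2 removes much of this signal by construction. Then 1 of 8 genes was higher and 0 lower, where 7.17% of all genes were higher and 2.62% lower. The nephron progenitor gene that was higher was Wt1, which stroma and progenitors can both express. Wt1 was detected in 30 of 35 Foxd1-positive and 11 of 19 Foxd1-negative cells and was higher by 1.56.

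The 17 cells with Pax2 and Six2 differed among themselves, and these counts were made after the values were seen. Six2 had a median of 12.3 RPKM in the 6 that were Foxd1-positive and 50.6 RPKM in the 11 that were Foxd1-negative, and Cited1 medians of 99.0 and 259 RPKM. Eya1, another progenitor factor, stood the other way, with medians of 134 and 33.7 RPKM. Some stromal genes were found more often in the Foxd1-positive cells: Pdgfra was detected in 6 of 6 and 4 of 11, Ntn1 in 6 of 6 and 5 of 11, Sfrp1 in 6 of 6 and 6 of 11, and Penk in 6 of 6 and 7 of 11. Meis1 had medians of 153 and 172 RPKM. Cells with stromal and progenitor transcripts together were thus found on both sides. No doublet caller was run on this small set.

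The lowest genes by the naming rule in all cells had varied functions. Abcf2, a cytosolic ATPase of the ABC family, was lower by 2.10, Tufm, a mitochondrial translation elongation factor, by 2.07, Exoc7, an exocyst subunit, by 2.04, and Trap1, a mitochondrial chaperone, by 2.02. Tufm had medians of 2.55 RPKM in Foxd1-positive and 58.3 RPKM in Foxd1-negative cells and was detected in 28 of 41 and 29 of 30. The same 4 genes differed in pool 2 by only -0.53, -0.95, -0.74 and -0.15, and in pool 3 by -2.49, -2.36, -2.55 and -2.69. Rabl2, Scnm1, Vipas39, Lzic, Ddx52, Tgds, Pde9a and Abhd14a completed the 12 lowest, lower by 1.81 to 2.0. In the 54 cells Pde9a, a cyclic GMP phosphodiesterase, was the lowest. It had medians of 0.181 RPKM in Foxd1-positive and 17.3 RPKM in Foxd1-negative cells and was lower by 2.61, by 2.79 in pool 2 and by 2.61 in pool 3. Fkbp10, a collagen chaperone of the endoplasmic reticulum, followed with 2.18.

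On the other side of that repeat, 5 of the 12 highest genes were new to the list. They were Tipin, a replication fork protein (higher by 2.91), Cstb, a cysteine protease inhibitor (2.59), Cul3, a ubiquitin ligase scaffold (2.36), Fam162a (2.30) and Ghitm, a protein of the inner mitochondrial membrane (2.26). Tipin was detected in 29 of 35 Foxd1-positive and 10 of 19 Foxd1-negative cells, with medians of 124 and 1.08 RPKM. Serping1, Penk, Cldn1, Ogn, Sertad4, C1qtnf2 and Mn1 were among the 12 highest in both.

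The order of values along Foxd1 was then set out for these genes in 4 strata of the 71 cells, chosen after the values were seen: Foxd1 listed at 0 (20 cells), above 0 and under 1 RPKM (10), 1 to under 5 RPKM (12) and 5 RPKM or more (29). The genes shown were picked for differences across 1 RPKM of Foxd1 in the same cells. The contrast between strata under and over 1 RPKM is thus largely given by that choice and is no further evidence. Penk had medians of 8.68, 180, 377 and 336 RPKM from the lowest stratum to the highest. It was detected in 10 of 20, 10 of 10, 12 of 12 and 29 of 29 cells. Cdkn1c had medians of 85.9, 232, 560 and 436 RPKM, and Serping1 of 0.222, 31.6, 159 and 70.8 RPKM. For these 3 genes the stratum at 0 was the lowest, the cells between 0 and 1 RPKM lay between it and the Foxd1-positive cells, and the cells at 5 RPKM or more were not above those at 1 to 5 RPKM. With the Pax2 and Six2 cells left out (13, 6, 9 and 26 cells) the stratum at 0 was still the lowest for these 3 genes. The place of the next stratum was kept for Cdkn1c, with medians of 129, 332, 748 and 473 RPKM. It was not kept for Penk (16.7, 648, 385 and 375 RPKM) or Serping1 (0, 119, 199.8 and 70.8 RPKM). Sfrp1 (9.50, 35.3, 91.7 and 128 RPKM), Ntn1 (0.966, 7.06, 12.9 and 25.8 RPKM) and Nfia (56.8, 75, 96.7 and 125 RPKM) had medians that were higher in each stratum than in the one before in all 71 cells. With the Pax2 and Six2 cells left out this order held for Nfia (69.7, 99.6, 122 and 135 RPKM) but not for Sfrp1 (18.45, 158, 119 and 133 RPKM) or Ntn1 (4.22, 12, 28 and 27.4 RPKM). Tcf21 had medians of 42.5, 96.3, 62.4 and 5.47 RPKM and was thus low in the cells with the most Foxd1, not highest in the cells without it. The median number of genes per cell in the strata was 4763, 5712, 4786 and 5290, and 7, 4, 3 and 3 of the cells had Pax2 and Six2.

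All 10 cells with Penk under 1 RPKM were among the 20 with Foxd1 listed at 0. Of these 10, 4 had Pax2 and Six2. Of the other 6, 2 had the high Mcam named above, together with Pdgfrb at 295 and 441 RPKM and Foxc2 at 54.4 and 94 RPKM. Cspg4, another listed mural gene, was at 9.45 and 121 RPKM in these 2 cells. Another 2 had Rgs5 at 353 and 709 RPKM with Mcam under 1 RPKM. The cell with 353 RPKM also had Pdgfrb at 81.5, Kcnj8 at 161 and Cspg4 at 32.7 RPKM. In the cell with 709 RPKM each of those was under 1 RPKM. A further cell had Rgs5 at 157, Meis1 at 389, Mcam at 18 and Cspg4 at 13.1 RPKM. The last had Meis1 at 0.163 RPKM and Wt1 at 201 RPKM. The cells without Penk and Foxd1 were therefore not of a single profile, although several of those without Pax2 and Six2 had mural genes together.

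The pools held different cells of the same labelled group, and across genes their differences were only weakly related. Over 11367 genes the differences in pool 2 and pool 3 had a Pearson correlation of 0.09 and a Spearman correlation of 0.08, and 51.6% had the same sign. With the Pax2 and Six2 cells left out the values were 0.11, 0.10 and 53.4% over 11202 genes. Among the genes tested within pool 3, 4.31% were higher and 5.26% lower by 1 log2 unit, and within pool 2 19.4% and 8.15%. Of the 11367 genes, 487 were higher in pool 3 and 2247 in pool 2. Of the pool 3 genes 180 were also among those of pool 2. That is 37% of the pool 3 list, where 19.8% of all genes compared were higher in pool 2. It is 8.01% of the pool 2 list, where 4.28% of all genes compared were higher in pool 3. In the lower direction 594 of the 11367 genes passed in pool 3 and 890 in pool 2, and 76 were shared. That is 12.8% of the pool 3 list, where 7.83% of all genes were lower in pool 2. It is 8.54% of the pool 2 list, where 5.23% of all genes were lower in pool 3. In the 54 cells without Pax2 and Six2, 7.56% of tested genes were higher and 4.59% lower in pool 3, and 28.1% and 13.7% in pool 2. The named genes were chosen to have the same sign in both pools, so their place in the plot by pool is no further evidence. Most genes past 1 log2 unit in a pool were not past it in the other, and pool 2 has only 6 Foxd1-negative cells.

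Foxd1 was also detected in cap mesenchyme cells, so the same split could be made in cells that the rule did not use. Foxd1 was at 1 RPKM or more in 27 of 44 E18.5 Pax2 mutant cap cells (61.4%, 45.5 to 75.6%) and in 25 of 74 E18.5 wild-type cap cells (33.8%, 23.2 to 45.7%), and at E13.5 in 5 of 29 mutant and 4 of 18 wild-type cap cells. In the mutant cells 10% of 10322 genes were higher by 1 log2 unit in Foxd1-positive cells and 3.49% were lower. In wild-type cap cells 6.7% of 11140 genes were higher and 0.359% lower. The median number of genes was 3769 in Foxd1-positive and 3518 in Foxd1-negative mutant cells, and 5488 and 5037 in wild-type cap cells.

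In the mutant cells 8 of the 12 highest interstitium genes had a positive difference, 4 of them past 1 log2 unit, where 58.3% of all 9679 genes compared were positive. Penk was higher by 2.15, Plagl1 by 1.81, Sertad4 by 1.78 and Mn1 by 1.06, while Serping1 differed by -0.25 and Ackr3 by -0.59. The 12 lowest interstitium genes kept a negative difference for 7 genes, with 0 lower and 1 higher by 1 log2 unit, and for the 12 lowest of the repeat the count was 4. Of the 14 nephrogenic interstitium genes, 6 were higher by 1 log2 unit and 0 lower in the Foxd1-positive mutant cells: Rspo3 by 3.59, Meis2 by 1.74, Crabp1 by 1.48, Snai2 by 1.46, Meis1 by 1.40 and Fat4 by 1.28. Of the 8 medullary stroma genes only Penk was, and of the 14 stromal and fibroblast genes 1 was higher and 0 lower, with a median of -0.20. In wild-type cap cells 6 of the 12 were positive, where 66.3% of all 10423 genes were, and Penk differed by -0.18, Plagl1 by -0.39 and Sertad4 by -0.78. The 12 lowest genes were negative for 8 there, 2 of them past 1 log2 unit. Of the nephrogenic interstitium genes 1 was higher and 0 lower in wild-type cap cells, the higher being Tcf21 by 1.10. Over all genes the Pearson correlation of the interstitium differences was 0.06 with those of mutant cells and 0.00 with those of wild-type cap cells. The mutant cells were all of another pool than the interstitium cells, and the difference between the groups was not tested.

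**Figure D5:**
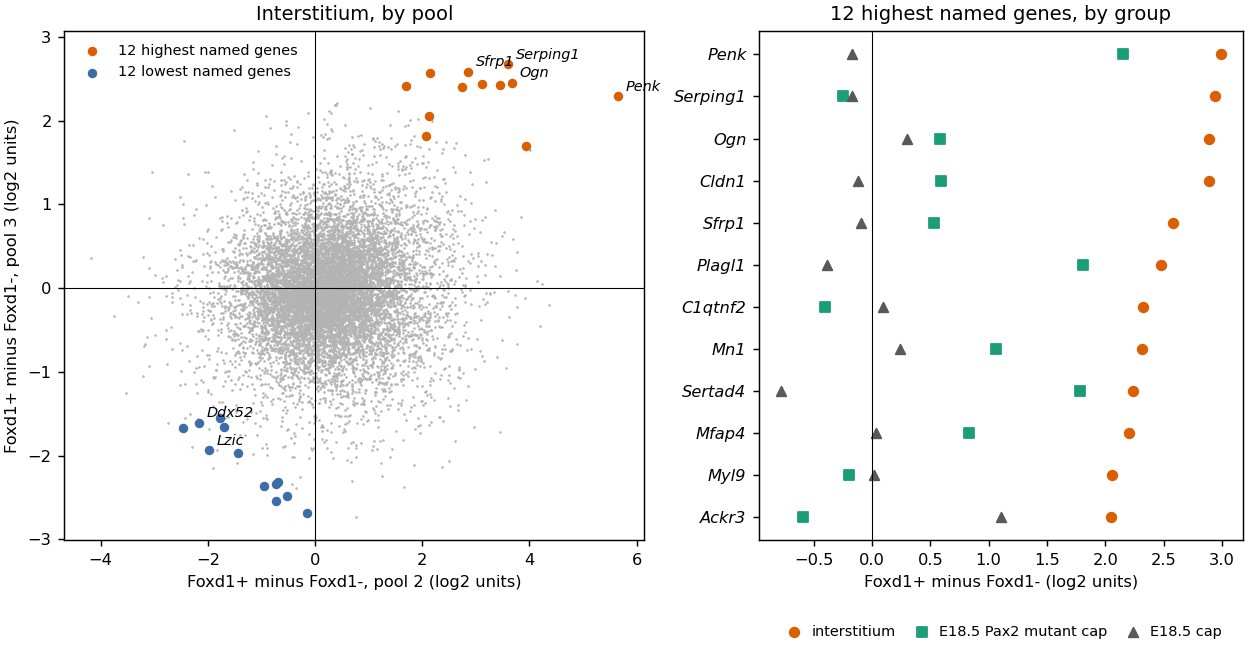
Left: Foxd1-positive minus Foxd1-negative difference of mean log2(RPKM + 1) for 11367 genes in pool 2 (x axis) and pool 3 (y axis), with the 12 highest named genes in orange and the 12 lowest in blue. Right: the same difference for the 12 highest genes in interstitium, in E18.5 Pax2 mutant cap and in E18.5 cap cells; Penk is at 2.99, 2.15 and -0.18.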

How the data were processed

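The authors deposited 1 table of RPKM for 36186 gene entries in 237 cells, of which 18447 entries are 0 in every cell. Reads were aligned to mm10 with TopHat, per the submitters' processing notes; the version, gene models and counting rule are not given in the sources used here. Read depth and strand handling are therefore unknown, and overlapping genes cannot be told apart. Coordinates are those of the deposited table.

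Values were taken as log2(RPKM + 1) with Python 3.11.15, pandas 2.3.3 and numpy 2.4.6. The difference calculation returned known shifts added to permuted values of these cells, which checks its arithmetic only. A gene was kept if it reached 1 RPKM in 10% of the cells of either side. No cells were filtered, no doublet caller was run, and 1 cell with conflicting labels entered no group. Shares carry exact Clopper-Pearson 95% intervals (scipy 1.17.1), which cover counting error only. Each group is 1 sample, so no test was made. Named genes are the members of 31 lists (348 genes, 2 not matched in the table) and, in each comparison, the 12 highest and 12 lowest genes among those that reach 1 RPKM in 50% of the cells on their higher side and have the same sign in both pools, without Gm, Rik and LOC entries and mitochondrially encoded, ribosomal protein, haemoglobin, Xist and Y-linked genes. The members and lists were chosen with earlier results of these data known. The alternatives were other pseudocounts, filters, scalings, Foxd1 thresholds and cell selections, and leaving out each cell in turn.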

Additional observations from a re-analysis of the deposited data

How the results depend on the processing

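The counts of genes past 1 log2 unit depended on the settings, while the direction of the leading genes did not in the settings below. These genes were chosen for the largest differences in the same cells and for the same sign in both pools. Their kept sign is therefore largely given by that choice and is no further evidence. Over the 12 settings other than single pools, the 24 leading genes of each comparison kept their sign in every value (144 of 144 for each set of 12). They stayed past 1 log2 unit in 138 (highest) and 124 (lowest) values in all cells, and in 142 and 130 without the Pax2 and Six2 cells.

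In all cells, genes higher and lower numbered 1229 and 898 with a pseudocount of 0.1, 37 and 18 with 10, 2250 and 947 in pool 2 only, and 1396 and 1362 as a log2 ratio of mean RPKM. Higher genes numbered 834 with Foxd1 above 0 as the threshold and 985 without cells that had either Pax2 or Six2, and lower genes 594 in pool 3 only and 489 in cells with 4000 to 6500 genes. Without the Pax2 and Six2 cells the corresponding counts were 2132 and 824, 93 and 26, 2952 and 1435, and 2123 and 1611. There, 1358 genes were higher with Foxd1 above 0, and 501, 620 and 498 were lower in pool 3 only, in cells with 4000 to 6500 genes, and with the cells left out in which the entry LOC100503946 reached 20000 RPKM. Leaving out each cell in turn gave 346 to 441 higher and 247 to 335 lower genes in all cells, and 732 to 930 and 271 to 374 without the Pax2 and Six2 cells. Another scaling to the same RPKM sum or by median ratios moved the median of all genes by less than 0.1.

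As a log2 ratio of mean RPKM, the renin and mesangial list was at -0.90 in all cells and -1.03 without the Pax2 and Six2 cells, and the podocyte list at -0.78 and -0.98. In pool 2 only, without the Pax2 and Six2 cells, the retinoic acid list was at 1.22. Among named genes past 1 log2 unit, those that changed sign in all cells were, in pool 2 only, Col1a1 (-0.31), Dcn (-0.12), Gins2 (-0.92), Pdgfa (0.39) and Sema3a (-0.13). Without cells that had either Pax2 or Six2 they were Six2 (0.044) and Pdgfa (0.033), and as a ratio of means Col1a1 (-0.56), Mgp (-0.15), Col6a1 (-0.14) and Gins2 (-0.65). Without the Pax2 and Six2 cells they were Fbn1 (-0.034), Nfib (-0.23), Gins2 (-2.03) and Bmpr1a (-0.28) in pool 2 only, Gins2 (-0.017) with Foxd1 above 0, and Col3a1 (-0.11), Fbn1 (-0.35), Eln (-0.020) and Gins2 (-1.10) as a ratio of means. Named genes under 1 log2 unit crossed 0 more widely, Rgs5 for example between -1.17 and 1.04 in all cells. The cause was not tested for any of these. A ratio of means gives most weight to the few highest cells. No paired analysis was possible because cells on either side of the split carry nothing that matches them up. Depth is unknown, so a transcript listed at 0 may be missed and not absent, and with 6 Foxd1-negative cells pool 2 gives the least certain values.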

Other observations

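Proliferation genes differed between the splits. For all genes the shares were 3.4% higher and 2.49% lower in all cells, and 7.17% and 2.62% without the Pax2 and Six2 cells. In all 71 cells 1 of 12 S phase genes was higher by 1 log2 unit in Foxd1-positive cells and 0 were lower, with a median of -0.04. Without the Pax2 and Six2 cells 4 were higher and 0 lower, with a median of 0.60: Gins2 by 1.53, Mcm6 by 1.28, Rrm2 by 1.15 and Mcm2 by 1.02. Gins2 differed by -2.03 in pool 2. Of 15 G2 and M phase genes in the same cells, 1 was higher (Mki67 by 1.02) and 3 were lower, with a median of 0.00: Aurka by 1.71, Ccnb1 by 1.49 and Ube2c by 1.04. The mean over the S phase list was 3.87 ± 2.1 in Foxd1-positive and 3.27 ± 1.81 in Foxd1-negative cells, and over the G2 and M phase list 3.35 ± 2.33 and 3.45 ± 2.88, differences well within the SD between cells.

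The immediate early genes Fos and Btg2 were higher by 1.44 and 1.76 in Foxd1-positive cells without Pax2 and Six2, 2 of 10 genes in that list, with 0 lower. In these cells 7.17% of all genes were higher and 2.62% lower. Housekeeping genes gave 0 of 12 past 1 log2 unit in either direction, with medians of 0.05 in all cells and 0.22 without the Pax2 and Six2 cells, where the median over all genes was 0.10. The pools differed in this. In all cells the mean over the list differed by 0.62 in pool 2 and -0.27 in pool 3, and in the repeat by 0.97 and -0.20. The median over all genes tested was 0.24 in pool 2 and -0.04 in pool 3, and 0.38 and 0.07 in the repeat. Differences quoted for pool 2 carry this shift, and its cause was not tested.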
